A study of Homo sapiens with 2 samples.

Results

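Condensin I and II are the 2 ring-shaped complexes that fold chromosomes, and their 8 subunit genes were followed here in C4-2B, an androgen-independent prostate cancer line that models castration-resistant disease in bone. The genes were chosen by name from the deposited tables: SMC2 and SMC4, shared by both complexes, NCAPD2, NCAPG and NCAPH of condensin I, and NCAPD3, NCAPG2 and NCAPH2 of condensin II. They are 8 of 47231 symbols kept. Each had 1 row of its own with none joined to another symbol, and all 8 exceeded 1 RPKM (reads per kilobase of transcript, scaled to the total of mapped reads) in both libraries. One culture received 2.5 µM MA4-022-1, which the labels class as an inhibitor of BET bromodomain proteins and kinases, and the other received DMSO as vehicle, for a time that the labels do not state. The study looked for genes that such tumours need and that the compound affects. With 1 library for each treatment, differences between them have no replicate error and could not be tested.

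Condensins are ATP-driven motors that extrude loops of DNA and compact chromatids for mitosis. In each, a heterodimer of the ATPases SMC2 and SMC4 is closed by a kleisin (NCAPH or NCAPH2) that carries a pair of HEAT-repeat subunits, one next to the SMC4 head (NCAPD2 or NCAPD3) and one on the middle of the kleisin (NCAPG or NCAPG2). Condensin II is in the nucleus through interphase and acts first in prophase, whereas condensin I meets chromosomes after the nuclear envelope breaks down. Many genes of mitosis carry at their promoters a cell cycle homology region, with the core letters TTTGAA, which is bound by the MuvB proteins of the DREAM and MYBL2 complexes.

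Promoter letters are shown for 5 subunit genes that hold this core before or across a start. In windows from 250 bases before to 50 after each RefSeq start (GRCh38.p14, used for sequence alone, since the expression loci are on hg19), 7 of the 8 genes matched, with 10 windows in all. NCAPH2 had no entry. TTTGAA, searched on both strands, occurred in 6 of these 10 windows, 1 each for SMC2, SMC4, NCAPD2, NCAPG, NCAPD3 and NCAPG2, against 15.2% of all 35116 windows and 12.4% of the 22198 windows of protein-coding symbols. The variant TTTAAA occurred in NCAPH, against 12.2% of all windows. The stretches below run from 150 bases before the start to base 10 of the transcript, 5′ to 3′ on the gene's strand, with the core in capitals on whichever strand it lies (TTCAAA is its reverse complement). They are NCAPG at chr4:17810829-17810988 (+), SMC2 at its upstream start, chr9:104094159-104094318 (+), SMC4 at its upstream start, chr3:160399500-160399659 (+), NCAPD2 at chr12:6493952-6494111 (+) and NCAPD3 at its downstream start, chr11:134223958-134224117 (-).
NCAPG: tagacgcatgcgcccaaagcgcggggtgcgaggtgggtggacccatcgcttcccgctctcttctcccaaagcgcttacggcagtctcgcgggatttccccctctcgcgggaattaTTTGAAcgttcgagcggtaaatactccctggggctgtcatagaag
SMC2: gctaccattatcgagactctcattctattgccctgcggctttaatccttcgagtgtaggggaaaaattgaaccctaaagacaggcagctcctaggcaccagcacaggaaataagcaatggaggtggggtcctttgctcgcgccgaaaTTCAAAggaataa
SMC4: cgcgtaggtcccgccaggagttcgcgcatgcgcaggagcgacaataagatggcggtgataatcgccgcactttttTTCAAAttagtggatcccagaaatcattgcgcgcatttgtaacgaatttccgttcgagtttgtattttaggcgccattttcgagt
NCAPD2: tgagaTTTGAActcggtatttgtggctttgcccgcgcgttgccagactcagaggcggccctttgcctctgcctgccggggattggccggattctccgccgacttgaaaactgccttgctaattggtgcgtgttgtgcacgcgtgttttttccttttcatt
NCAPD3: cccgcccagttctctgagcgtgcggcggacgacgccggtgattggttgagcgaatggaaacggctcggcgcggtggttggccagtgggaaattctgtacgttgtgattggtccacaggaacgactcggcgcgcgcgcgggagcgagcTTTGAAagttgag

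The core began 35 bases before the start in NCAPG, 75 before it in SMC4, 145 before it in NCAPD2 and 3 before it, so that it spans the start, in SMC2 and NCAPD3. In NCAPG2 it began at base 36 of the transcript, and the variant in NCAPH at base 33. SMC2, SMC4 and NCAPD3 each have 2 starts and hold the core at 1 of them. Which start is used in these cells was not measured. A link between the core and the expression ratios was not tested. CCAAT, the box bound by NF-Y, occurred in 3 of the 10 windows, against 34.6% of all windows, with 4 matches in NCAPD2, 2 at the downstream start of NCAPD3 and 1 in NCAPH. Of the E2F-type octamers TTTCCCGC, TTCCCGCC, TTTGGCGC and TTCGCGCC, the first 2 occurred, overlapping, 249 and 250 bases before the downstream start of NCAPD3, and 1.63% and 3.16% of all windows hold them. The E-box CACGTG and the TATA box TATAAA were in none of the 10 windows, against 7.26% and 11.5% of all windows. A match is a description of these letters only.

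All subunits but NCAPD3 were lower with MA4-022-1, and each condensin I subunit lay further below vehicle than its condensin II counterpart. At the threshold of 2-fold on the scale of RPKM + 1, 5 of the 8 were lower and none was higher. Fold values of single genes are on this scale unless plain RPKM is named. Of 15435 genes at 1 RPKM or more in a library, 9.57% were at least 2-fold lower, and of the 10428 protein-coding ones 9.46%. At least 2-fold higher were 1193 of the 15435. The median log2 ratio, MA4-022-1 over vehicle, was -1.25 for the 8 subunits and -0.02 for all expressed genes. In bulk RNA, fewer cells in a phase of the cell cycle and less RNA per cell cannot be told apart.

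**Figure D1:**
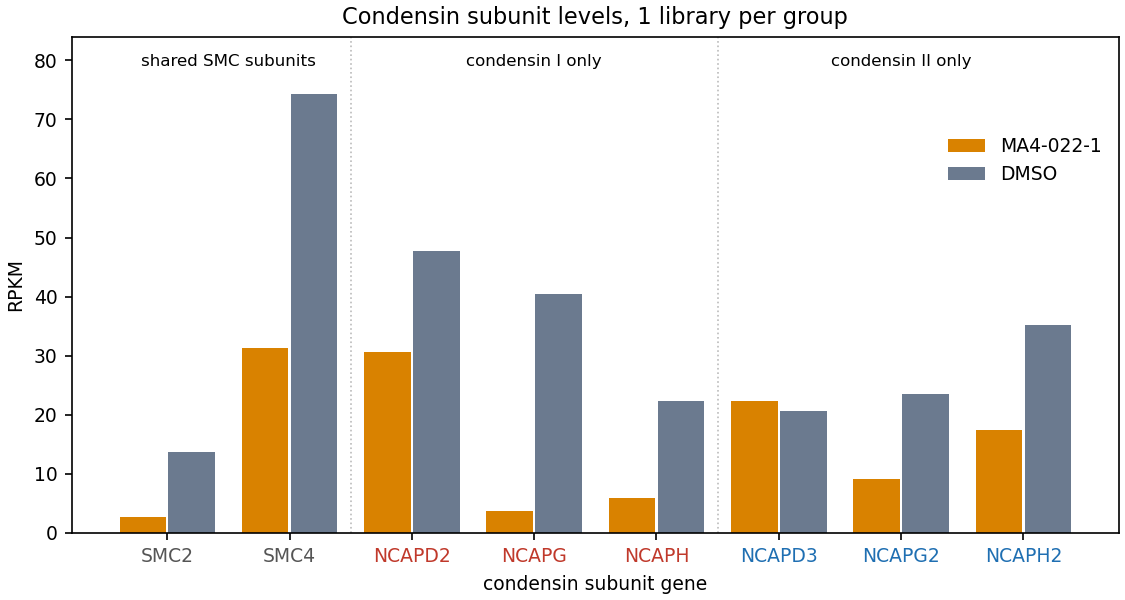
RPKM (linear axis from 0) of the 8 condensin subunit genes, with the MA4-022-1 library left of the DMSO library for each gene. Every pair but that of NCAPD3 has the lower bar in the MA4-022-1 library, and NCAPG, at 3.62 against 40.5 RPKM, has the lowest ratio of the 8.

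The shared ATPases were both lower. SMC2 stood at 2.72 RPKM in the MA4-022-1 library, against 13.7 RPKM in the vehicle library (hg19 locus chr9:106856540-106903917). It was 3.94-fold lower on the scale of RPKM + 1 and 5.03-fold lower in plain RPKM. Its log2 ratio was -1.98 (95% counting interval -2.11 to -1.85), and 98.5% of expressed protein-coding genes had a higher ratio. SMC4 stood at 31.3 RPKM with MA4-022-1, against 74.3 RPKM with vehicle (chr3:159943422-160203561). Its log2 ratio was -1.22 with an interval from -1.28 to -1.16. SMC2 and SMC4 enter each complex in equal number, and SMC2 was the lowest and SMC4 the highest of the 8 levels in both libraries. The SMC2 level was 0.0866 of that of SMC4 with MA4-022-1 and 0.184 of it with vehicle.

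Among the subunits found only in condensin I, the 3 members went unequally far. NCAPG, the HEAT subunit on the middle of the kleisin, was at 3.62 RPKM with MA4-022-1, against 40.5 RPKM with vehicle (chr4:17812524-18023499). It was 8.97-fold lower on the scale of RPKM + 1 and 11.2-fold lower in plain RPKM. Its log2 ratio was -3.17 with an interval from -3.30 to -3.03, and 99.7% of expressed protein-coding genes had a higher ratio. NCAPH, the kleisin, was at 5.98 RPKM against 22.3 RPKM (chr2:97001504-97039583). It was 3.33-fold lower on the scale of RPKM + 1 and 3.72-fold lower in plain RPKM. Its log2 ratio was -1.74 with an interval from -1.90 to -1.57. NCAPD2, the HEAT subunit beside the SMC4 head, was at 30.6 RPKM with MA4-022-1 and 47.8 RPKM with vehicle (chr12:6601149-6641211). Its log2 ratio of -0.62 was within 2-fold, with an interval from -0.69 to -0.56. The partners of one complex, close to each other in the vehicle library, were thus spread out in the MA4-022-1 library: the highest of the 3 levels was 8.46 times the lowest with MA4-022-1 and 2.15 times the lowest with vehicle.

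Among the subunits found only in condensin II, NCAPG2 and NCAPH2 were lower and NCAPD3 was not. NCAPG2, the counterpart of NCAPG, was at 9.11 RPKM with MA4-022-1, against 23.5 RPKM with vehicle (chr7:158424002-158497520). Its log2 ratio was -1.28 with an interval from -1.39 to -1.16. NCAPH2, the kleisin, was at 17.4 RPKM against 35.1 RPKM (chr22:50946644-50971009). It was 1.96-fold lower on the scale of RPKM + 1 and 2.02-fold lower in plain RPKM. The interval of its log2 ratio, from -1.10 to -0.84, spans the threshold. NCAPD3, the counterpart of NCAPD2, was at 22.3 RPKM with MA4-022-1 and 20.6 RPKM with vehicle (chr11:133938819-134117686). Its log2 ratio of 0.12 had an interval from -0.04 to 0.27, which spans 0 at an assumed transcript of 1521 nt. A longer transcript would narrow that interval. The log2 ratio was -0.01 when the sums of both libraries were made equal. The highest of the 3 condensin II levels was 2.45 times the lowest with MA4-022-1 and 1.71 times the lowest with vehicle.

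**Figure D2:**
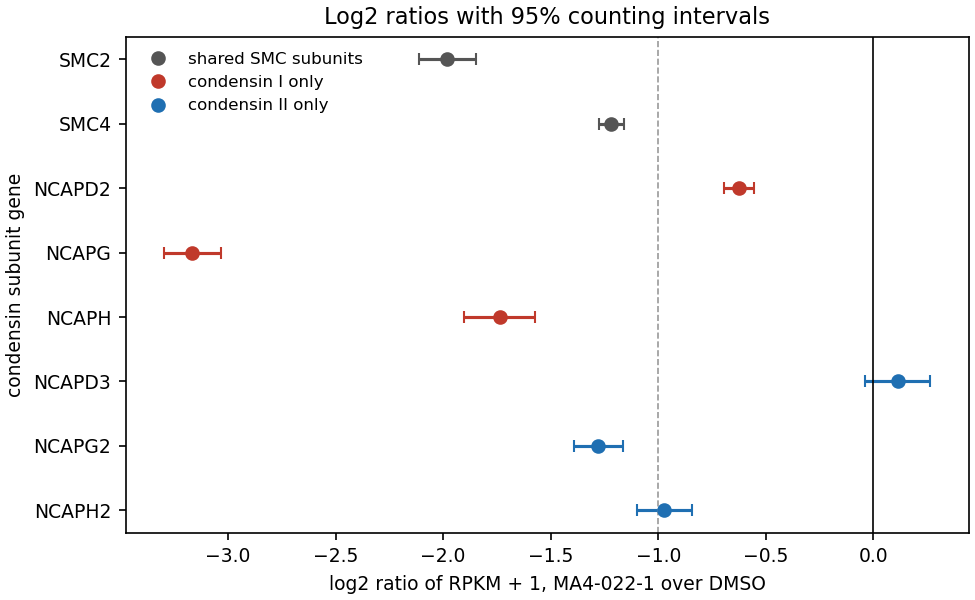
Log2 ratios of RPKM + 1, MA4-022-1 over DMSO, for the 8 subunits (points), with 95% counting intervals (bars) and the 2-fold threshold as a dashed line. NCAPG lies lowest at -3.17, NCAPD3 lies at 0.12, and the interval of NCAPH2 crosses the threshold.

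**Figure D3:**
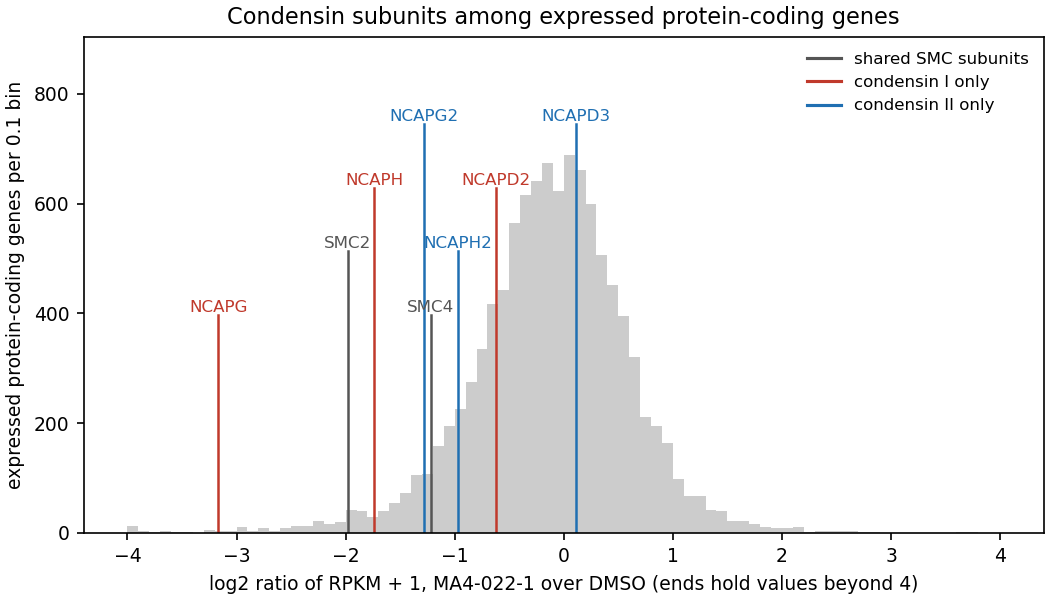
Histogram of log2 ratios of RPKM + 1, MA4-022-1 over DMSO, of 10428 expressed protein-coding genes, with the condensin subunits as vertical lines whose heights carry no value. NCAPG, SMC2, NCAPH, NCAPG2 and SMC4 lie below 94.1% or more of these genes, and NCAPD3 below 36.8% of them.

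Set side by side by subunit class, each condensin I gene differed more than its condensin II counterpart. The ratio of NCAPD2 to NCAPD3, in RPKM, was 1.37 with MA4-022-1 and 2.32 with vehicle, a log2 difference of -0.76 (counting interval -0.93 to -0.59). NCAPG over NCAPG2 was 0.398 with MA4-022-1 and 1.72 with vehicle, a log2 difference of -2.11 with an interval from -2.32 to -1.91, so the order of these 2 genes was the opposite in the 2 libraries. NCAPH over NCAPH2 was 0.343 with MA4-022-1 and 0.634 with vehicle, a log2 difference of -0.88 with an interval from -1.11 to -0.66. The median log2 ratio of RPKM + 1 was -1.74 for the 3 condensin I subunits and -0.97 for the 3 condensin II subunits, a difference of -0.77. These medians are the values of NCAPH and NCAPH2, so the difference restates that of the kleisin pair. The ranges overlapped, from -3.17 to -0.62 for condensin I and from -1.28 to 0.12 for condensin II. NCAPD2 lay nearer to vehicle than NCAPG2 and NCAPH2 did. Summed levels of the 3 subunits were 40.2 RPKM for condensin I and 48.9 RPKM for condensin II with MA4-022-1, against 111 and 79.2 RPKM with vehicle. The condensin I sum was therefore 0.823 of the condensin II sum with MA4-022-1 and 1.40 times it with vehicle. The 3 subunits are not replicates, and 2 libraries cannot show how far this difference would vary between cultures.

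**Figure D4:**
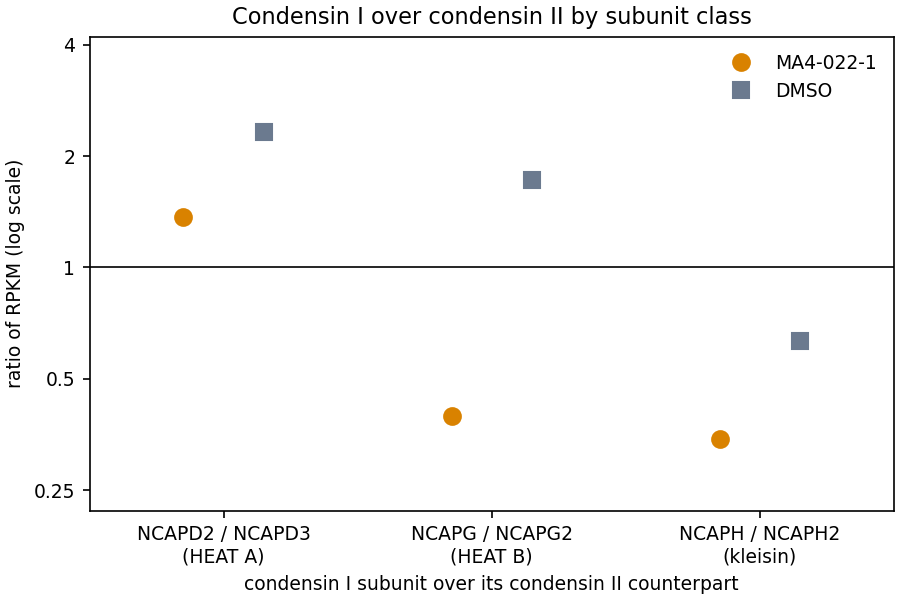
Ratio of RPKM (log axis) of each condensin I subunit to its condensin II counterpart, with the MA4-022-1 library (circles) left of the DMSO library (squares). All 3 ratios are lower with MA4-022-1, and that of NCAPG to NCAPG2 crosses 1, at 0.398 against 1.72.

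The subunit classes also had an order within each complex. The HEAT subunit beside the SMC4 head had the smallest difference in both, at -0.62 for NCAPD2 and 0.12 for NCAPD3, and the HEAT subunit on the kleisin the largest, at -3.17 for NCAPG and -1.28 for NCAPG2. NCAPD2 over NCAPG was 8.46 with MA4-022-1 and 1.18 with vehicle, and NCAPD3 over NCAPG2 was 2.45 with MA4-022-1 and 0.874 with vehicle. The kleisin lay between them in both complexes.

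The order of levels was SMC4, NCAPD2, NCAPD3, NCAPH2, NCAPG2, NCAPH, NCAPG and SMC2 with MA4-022-1, and SMC4, NCAPD2, NCAPG, NCAPH2, NCAPG2, NCAPH, NCAPD3 and SMC2 with vehicle. Counting intervals of neighbours met for SMC4 and NCAPD2 with MA4-022-1, and for NCAPG2 with NCAPH and NCAPH with NCAPD3 with vehicle. NCAPG had rank 7 of the 8 with MA4-022-1 and rank 3 with vehicle, while NCAPD3 had rank 3 with MA4-022-1 and rank 7 with vehicle. Other neighbours were apart by more than counting error.

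Several subunits share their deposited locus with other genes, and reads of overlapping features can be split between them. At the SMC4 locus, TRIM59, a ubiquitin ligase gene, had 6 rows that summed to 27.4 RPKM with MA4-022-1 and 102 RPKM with vehicle, a log2 ratio of -1.86, with 2 of these rows listed at 0 with MA4-022-1. The row that joins TRIM59 with IFT80, of intraflagellar transport, was at 71.6 RPKM against 69.2 RPKM. MIR15B and MIR16-2, microRNA genes in an intron of SMC4, were listed at 0 in both libraries, as were RP11-227J5.3 and a U7 row there. C3orf80 was at 0.254 RPKM against 1.58 RPKM, and RP11-432B6.1 at 2.68 RPKM against 0.281 RPKM.

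The neighbours of NCAPD2 were level, SCARNA10, a Cajal body RNA, at 1127 RPKM with MA4-022-1 against 1024 RPKM, and MRPL51, of the mitochondrial ribosome, at 255 RPKM against 229 RPKM. LCORL at the NCAPG locus was at 8.33 RPKM with MA4-022-1 against 5.99 RPKM with vehicle, while NCAPG beside it was lower. RP11-414P19.1 there was listed at 0 with MA4-022-1 and at 0.0947 RPKM with vehicle. At the NCAPD3 locus VPS26B, a retromer subunit, was at 38.7 RPKM against 23.8 RPKM and RP11-700F16.3 at 12.4 RPKM against 11.8 RPKM. JAM3, RP11-700F16.2 and PTP4A2P2 there were under 1.5 RPKM in both libraries. The joined row of ODF3B, SCO2 and TYMP at the NCAPH2 locus was at 19.8 RPKM against 23.3 RPKM. SMC2, NCAPH and NCAPG2 had a locus to themselves, and the pseudogene NCAPD2P1 was listed at 0 in both libraries. How far read sharing bears on SMC4 was not tested.

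The enzymes and scaffold proteins that work with condensin were mostly lower as well. Of 32 listed partners and regulators, 31 were expressed under a symbol of their own and PPP2CA was found only in a joined row. Lower by 2-fold or more were 18 of these 31, or 58.1%, against 9.57% of all expressed genes. Within 2-fold were 13 and none was higher beyond it, while 1193 of all 15435 expressed genes were. The list's median log2 ratio was -1.08. CDK1, which phosphorylates both complexes at mitotic entry, was at 37.3 RPKM with MA4-022-1 against 183 RPKM with vehicle, and its partner CCNA2 at 2.67 RPKM against 17.0 RPKM. BIRC5 and AURKB, of the chromosomal passenger complex that helps condensin I load, were 4.21-fold and 4.07-fold lower. TOP2A, the topoisomerase that shares the chromosome axis with condensin, was at 6.26 RPKM with MA4-022-1 against 26.5 RPKM with vehicle. Its paralogue TOP2B, which cells also express outside the cycle, had the highest ratio of the list (chosen after its values were seen), at 326 RPKM against 164 RPKM and a log2 ratio of 0.99.

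Some of these genes are known to act on condensin II. MCPH1, microcephalin, which restrains condensin II in interphase, was at 8.87 RPKM with MA4-022-1 against 19.3 RPKM with vehicle, a log2 ratio of -1.04. TTK, a checkpoint kinase that phosphorylates NCAPH2, was at 4.13 RPKM against 14.2 RPKM. PLK1, which phosphorylates condensin II in prophase, was at 6.25 RPKM against 11.2 RPKM, within 2-fold.

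Beside the other SMC complexes, condensin lay lowest by its median. The 13 cohesin genes had a median log2 ratio of -0.49, with 11 within 2-fold. At least 2-fold lower were 2 of them, or 15.4%, against 9.57% of all expressed genes. These 2 were ESCO2, the acetyltransferase that locks cohesin in S phase, at 4.97 RPKM with MA4-022-1 against 43.9 RPKM with vehicle, and CDCA5, sororin, at 2.32 RPKM against 14.3 RPKM. The cohesin ATPase SMC3 was 1.91-fold lower, and the loader NIPBL was at 40.2 RPKM against 20.9 RPKM, 1.88-fold higher. All 7 SMC5/6 genes lay within 2-fold, as did 12765 of all 15435 expressed genes, so the count does not set them apart. The SMC5/6 median was -0.00. Its ATPase SMC6 was at 27.3 RPKM against 15.4 RPKM, and NSMCE1 at 167 RPKM against 285 RPKM. NSMCE2 and NSMCE4A had log2 ratios of -0.47 and 0.23.

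**Figure D5:**
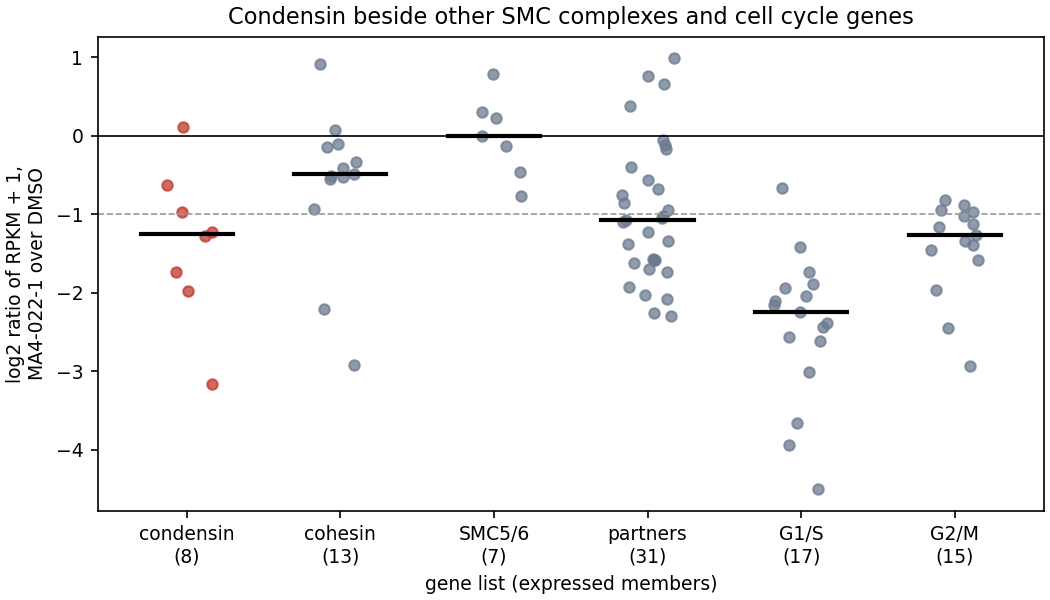
Log2 ratios of RPKM + 1, MA4-022-1 over DMSO, of the expressed genes of 6 lists (points, with a bar at the median and the 2-fold threshold dashed); horizontal scatter within a list carries no value. The medians are -1.25 for condensin, -0.49 for cohesin, -0.00 for SMC5/6, -1.08 for partners, -2.24 for G1/S and -1.26 for G2/M genes. CCNB1, CCNB2 and BUB1 are in both the partner and the G2/M list.

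Markers of the cell cycle moved with these values. Of 17 G1/S genes 16 (94.1%) were at least 2-fold lower, against 9.57% of all expressed genes. The list's median was -2.24, and RRM2, CDC6, CDC45 and MCM5 led it with log2 ratios from -4.50 to -3.01. Of 15 expressed G2/M genes 11 (73.3%) were at least 2-fold lower and 4 within 2-fold, with a median of -1.26, close to that of condensin. NDC80, UBE2C, TPX2 and CCNB2 led that list, at log2 ratios of -2.93, -2.45, -1.96 and -1.58. The lists overlap, since CCNB1, CCNB2 and BUB1 are also among the listed partners. The part of these cell cycle genes in the condensin values was not tested.

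Expressed symbols of 1 unjoined row were ranked by distance of log2(RPKM + 1) over the 2 libraries from the mean of the 3 condensin I subunits. Nearest were NIPAL2, PACRGL and MCM6, at distances of 0.05, 0.06 and 0.07. This mean lay at 9.07 RPKM with MA4-022-1 and 35.1 RPKM with vehicle. NCAPD2, at 30.6 RPKM with MA4-022-1, and NCAPG, at 3.62 RPKM, were far from it, so likeness to the mean is not likeness to each subunit. MCM6, a subunit of the replicative helicase, was at 8.60 RPKM with MA4-022-1 and 34.5 RPKM with vehicle. For the condensin II mean the nearest were ZNF573, TIMELESS and ZNF33A, each at a distance of 0.04. Within a distance of 0.25 there were 7 genes for the condensin I mean and 114 for the condensin II mean.

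Steps among the low values put the totals behind RPKM at 19909263 reads with MA4-022-1 and 27166513 reads with vehicle. At the assumed transcript lengths, subunits then rested on an estimated 281 to 3015 reads with MA4-022-1 and 737 to 9749 with vehicle. The prostate markers TMPRSS2, FOLH1, HOXB13 and STEAP2 stood between 31.7 and 488 RPKM with MA4-022-1 and between 54.8 and 615 RPKM with vehicle, all within 2-fold, and KLK2 and KLK3 were found only in a joined row. Of markers of other cells, PECAM1 was listed at 0 in both libraries, PTPRC was at most 0.192 RPKM, VIM was at 2.60 RPKM against 2.96 RPKM and COL1A1 at 5.03 RPKM against 1.19 RPKM.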

How the data were processed

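Ribosome-depleted total RNA of 1 MA4-022-1 and 1 DMSO library was read as single 50 bp ends, per the labels' protocols. TopHat2 2.0.13 and Cufflinks 2.2.1 with hg19 are named in the submitters' processing notes. The authors deposited RPKM per gene, per the file headers, so no count test was run, and both tables listed the same 62271 rows. Left out were 2751 rows with no symbol and 2441 short RNA symbols, while 1635 rows that joined several symbols kept their joint name. Rows of 1 symbol were summed.

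Ratios are log2 of RPKM + 1, which understates the change of low genes. They were not rescaled, and the median ratio of genes averaging at least 1 RPKM was -0.03. RPKM is itself scaled to each library's total, so a shift of all RNA per cell could not be seen. Totals were fitted on 836 processed pseudogenes of 600 to 6000 nt alone at their locus. Within 2% of a whole read lay 149 of 151 low values (5 reads at most) of the MA4-022-1 library and 196 of 198 of the DMSO library. The fit sought to raise this share, so the share is no separate check. Exact 95% binomial or Poisson counting intervals (normal for differences between pairs) assume the median coding transcript of at least 1000 nt in GENCODE 29, used for lengths alone. They cover counting error alone, neither PCR duplicates nor variation among cultures. Steps were tested on simulated data.

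The members, the lists and the named genes (all members, every row at their loci, up to 4 of the largest ratios per list among genes at 5 RPKM or more, and condensin kinases and regulators) were chosen with earlier results of these data known. Protein-coding symbols came from RefSeq and GENCODE 29. Python 3.11.15, numpy 2.4.6, pandas 2.3.3, scipy 1.17.1 and matplotlib 3.10.9 were used. Alternatives were other pseudocounts, scalings, filters, thresholds and ways to combine rows. Some listed marker genes are not reported here.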

Additional observations from a re-analysis of the deposited data

How the results depend on the processing

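With 8 alternatives per subunit, SMC2, SMC4, NCAPD2, NCAPG, NCAPH and NCAPG2 kept their direction and their side of the 2-fold threshold. NCAPH2 passed the threshold under 3 of them (a pseudocount of 0.1 RPKM, none, and equal sums), which made 6 subunits lower. With a pseudocount of 0.1 RPKM the share of expressed genes at least 2-fold lower also rose, from 9.57% to 13.3%. With no pseudocount and with equal sums that share was not taken. The log2 ratio of NCAPD3 ranged from -0.01 to 0.22. A pseudocount of 5 RPKM, which by construction draws low genes toward 0, gave medians of -1.31 for condensin I and -0.84 for condensin II, a difference of -0.47, and with means in place of medians that difference was -1.13. At a threshold of 1.5-fold 7 subunits were lower, and at 3-fold 3 were. No share of all genes was taken at either threshold, so these counts cannot be set against all genes. Without the filter on low values 3.13% of all genes were at least 2-fold lower, since genes near 0 then entered. The housekeeping controls, with GPI and SNRPD3 found only in joined rows, shifted the scale by -0.11 on the log2 scale and equal sums by 0.13. As each subunit had 1 row, the ways to combine rows changed nothing for the 8 subunits. Estimated reads were fewest for SMC2, NCAPG and NCAPH in the MA4-022-1 library, at 281 to 322. For NCAPD3 the assumed transcript was 1521 nt, the shortest of the 8. At that length counting error left its direction unsettled, and a longer transcript would give more estimated reads and a narrower interval. No paired analysis was possible because each group held 1 library.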

Other observations

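Regulators of cell cycle genes were described from a further list of 17. Of these, 16 were expressed under a symbol of their own and LIN37 was found only in a joined row. Binding of any of them at a condensin promoter was not measured. Of the 16, 9 (56.25%, against 9.57% of all expressed genes) were at least 2-fold lower with MA4-022-1 and 7 within 2-fold. The median log2 ratio of the 16 was -1.16. MYBL2, the MYB protein that joins MuvB in S phase, was at 1.17 RPKM with MA4-022-1 against 12.8 RPKM with vehicle. E2F1, an activating E2F that is also in the G1/S list, was at 1.31 RPKM against 11.5 RPKM. E2F8, a repressor of the family, was at 0.694 RPKM against 5.33 RPKM. The MuvB subunit LIN9 was at 2.57 RPKM against 11.9 RPKM. Whether these levels bear on the condensin genes was not tested.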
